A study of Mus musculus with 830 samples.

Results

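The endoderm cells described here carry the heterozygous GFP reporter of Neurog3 (called HZ in the labels, genotype Ngn3-GFP/+) and were taken from mouse embryos of 18, 21, 24 and 27 somites. They were chosen by the labels of reporter and somite number alone. They number 321 of the 830 cells of the series, with 61 cells at 18 somites, 149 at 21, 85 at 24 and 26 at 27. A further 5 HZ cells of 15 somites entered only an alternative. All 4 stages share 1 genotype, the cross C57BL/6XC3H and the tissue label Endoderm, so no stage has cells without the reporter. After trypsin dissociation the cells were stained for EpCAM, a surface protein of epithelia, and for DAPI, a stain of dead cells, and were then sorted. No source used here gives the gates. Libraries were made with Smart-seq3xpress, a plate-based single-cell RNA-seq method, and each deposited sample is 1 cell.

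Neurog3 (also called Ngn3) is a basic helix-loop-helix transcription factor that is expressed briefly in endoderm cells and starts their differentiation into hormone-producing endocrine cells of pancreas and gut. It activates factors such as Neurod1, Pax4 and Isl1, which act before and during the onset of hormone genes. In the mouse, the earliest endocrine cells of the pancreas express Gcg, the gene of the hormone glucagon.

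The labels name no embryo. Each stage was therefore treated as 1 sample, and its reads were summed over its cells. Levels are CPM, the reads of a gene scaled to counts per 1e6 reads of the sum or of the cell. CPM is not divided by gene length, so it compares stages for 1 gene and not genes with each other. A slope of log2 level per somite over the 4 sums was the only measure with a test (edgeR's quasi-likelihood test, 2 residual degrees of freedom, Benjamini-Hochberg adjustment at 0.05), and only genes past it are said to have risen or fallen. Steps between neighbouring stages have no replicate check. A gene was called higher or lower in a step when it differed at least 2-fold, reached 20 CPM in the higher stage and had at least 10 CPM in at least 20% of that stage's cells. Intervals of ratios and shares are exact 95% intervals that cover counting error only. In such sums, more cells of a kind and more RNA per cell cannot be told apart.

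The sums held 24976078, 63513086, 30038923 and 18282825 reads at 18, 21, 24 and 27 somites. The median cell had between 282930 reads, at 24 somites, and 645376 reads, at 27 somites. The 26 cells of 27 somites were the fewest and the most deeply sequenced. Sex also differed between stages: at a threshold of 5 CPM, Xist without Y-linked transcripts was found in 13 of 61 cells at 18 somites, 66 of 149 at 21, 0 of 85 at 24 and 4 of 26 at 27. The part of sex or embryo in any stage difference was not tested.

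The cells were not uniform, and 2 sets stood apart by their genes. Hepatic-gene-high cells had at least 100 CPM of at least 5 of the 7 genes Afp, Apoa1, Apoa2, Apoc2, Apob, Fgb and Cubn, which liver and yolk sac endoderm express. They were 7 of 61 cells at 18 somites, 7 of 149 at 21, 1 of 85 at 24 and 0 of 26 at 27. For this count of 0 the exact interval reaches 13.2%. They gave 21.1%, 6.35%, 0.0512% and 0% of the reads of those stages. The other set, Epcam-low cells, had under 100 CPM of Epcam, although EpCAM staining was part of the sort. They were 8 of 61 cells at 18 somites, 18 of 149 at 21, 2 of 85 at 24 and 10 of 26 (38.5%, interval 20.2 to 59.4%) at 27, with 9.32%, 12.8%, 1.39% and 46.1% of the reads. At 18 and at 21 somites 1 cell each was in both sets. Both sets were chosen after the data were seen, and the main results are given with and without them.

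Glucagon and the genes of hormone processing led the genes that rose from 18 to 27 somites. Of 15300 genes tested, 17 rose (0.111%) and 27 fell (0.176%). The levels of all 17 rising genes stood in stage order, as did those of all 27 falling genes. Gcg (chromosome 2, 62474530 to 62483650, minus strand, GRCm38) measured 4.36 CPM at 18 somites, 161 CPM at 21, 2058 CPM at 24 and 10233 CPM at 27. Its slope was 1.22 ± 0.12 log2 per somite (SE; edgeR adjusted p = 0.0359). Each stage was above the one before it.

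The promoter of Gcg is shown with that of Pyy, the gene of the gut and islet peptide PYY, because both hormone genes rose over all 4 stages. Each sequence is the 250 bases before the start of the gene from RefSeq (GRCm38.p6), written 5′ to 3′ on the gene's strand: Gcg chr2:62483654-62483903, minus strand, and Pyy chr11:102107833-102108082, minus strand. Capitals mark CAGATG, an E-box of the kind that basic helix-loop-helix factors bind, searched on both strands.
Gcg: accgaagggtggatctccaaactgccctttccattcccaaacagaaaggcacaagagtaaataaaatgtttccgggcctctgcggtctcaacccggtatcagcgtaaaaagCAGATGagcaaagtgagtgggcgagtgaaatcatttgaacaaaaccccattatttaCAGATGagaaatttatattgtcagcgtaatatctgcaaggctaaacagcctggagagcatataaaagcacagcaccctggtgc
Pyy: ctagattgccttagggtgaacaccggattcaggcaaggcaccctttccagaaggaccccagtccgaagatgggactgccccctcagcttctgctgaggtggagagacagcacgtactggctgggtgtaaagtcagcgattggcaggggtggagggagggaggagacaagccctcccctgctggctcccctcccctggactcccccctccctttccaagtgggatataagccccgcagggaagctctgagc
The Gcg window held 2 matches, beginning 139 and 83 bases before the start, and the Pyy window held 0. Pyy has 2 windows listed, and only the window shown was described. The window of Pcsk2 also held 0. A forkhead string (TGTTTAC) and a homeobox string (TAATTA) were searched too, with 0 matches in the windows of Gcg, Pyy and Pcsk2. Among 32851 promoter windows of this length, 14.4% held at least 1 match of CAGATG. The forkhead string was in 3.17% of them and the homeobox string in 4.84%. A match is a string of letters and not a shown binding site, and the absence of one says only that these letters are not in the window.

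Pyy itself rose from 126 CPM at 18 somites through 563 and 1832 CPM to 3329 CPM at 27, with a slope of 0.52 ± 0.05 (SE; edgeR adjusted p = 0.0356). Pcsk2, a prohormone convertase, measured 3.36, 32.5, 187 and 403 CPM and rose with a slope of 0.76 ± 0.09 (SE; edgeR adjusted p = 0.0447). Tmem27, a membrane protein of islet and kidney cells, measured 15.9, 38.1, 187 and 563 CPM (slope 0.58, edgeR adjusted p = 0.0176). The summed levels of these genes thus climbed at each step, by unequal amounts. The median cell did not follow from 24 to 27 somites. Its level went from 746 to 58.7 CPM for Pyy and from 30.8 to 5.72 CPM for Tmem27. For Pcsk2 it was lower at 27 somites too. Cells with at least 1000 CPM of Gcg gave 53.2% of the Pyy reads at 24 somites and 92.9% at 27. Scgn, a calcium-binding protein of endocrine cells, rose from 0.48 to 28.4 CPM, and Gnas, which encodes a G protein subunit and overlaps other transcripts of its locus, from 9.29 to 133 CPM. Spock1 rose from 3.60 to 53.3 CPM and Epha7, an ephrin receptor, from 18.4 to 137 CPM. Rgs13, a regulator of G protein signalling, had no read at 18 somites and 58.9 CPM at 27.

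**Figure D1:**
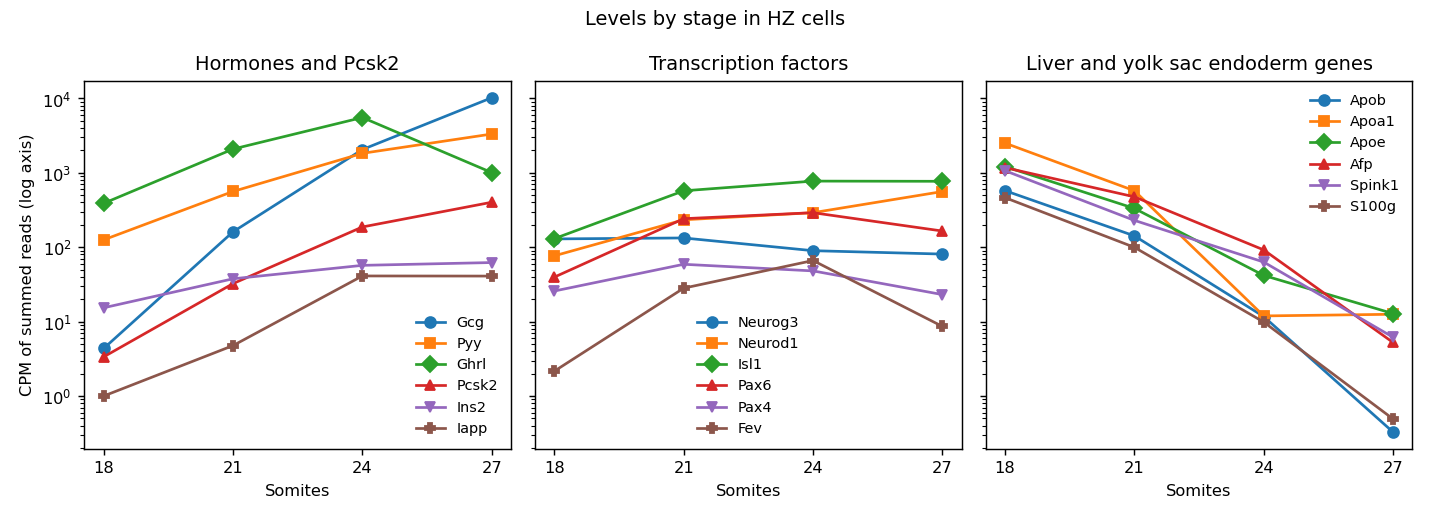
CPM of the summed reads of each stage (log axis) against somite number for 6 hormone and processing genes, 6 transcription factors and 6 genes of liver and yolk sac endoderm. Gcg climbs from 4.36 to 10233 CPM, Ghrl peaks at 24 somites, and Apob drops from 577 to 0.328 CPM.

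Hormones differed in their course. Of 15 hormone and peptide genes tested, 2 rose (Gcg and Pyy) and 0 fell, with a median slope of 0.26 beside 0.00 over all genes. At 21 somites 5 of 6 eligible hormone genes were called higher than at 18, where 4.13% of all eligible genes were. Ghrl, the gene of ghrelin, measured 390 CPM at 18 somites, 2090 at 21, 5552 at 24 and 1011 at 27. It was 5.37-fold higher at 21 than at 18 somites (5.26 to 5.48), 2.66-fold higher at 24 than at 21 (2.64 to 2.68) and 5.49-fold lower at 27 than at 24 (5.41 to 5.58). Ghrl therefore peaked at 24 somites while Gcg went on climbing, by 37.0-fold, 12.8-fold and 4.97-fold in the 3 steps. Iapp, the gene of amylin, stood at 1.00 and 4.77 CPM at 18 and 21 somites and at 41.2 and 41.0 CPM at 24 and 27. The insulin genes were low, with Ins2 at 15.4, 37.7, 57.2 and 62.4 CPM.

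The genes of granules and hormone processing were higher mainly between 18 and 21 somites. In that step 12 of 18 eligible members were called higher and 0 lower, beside 4.13% and 2.23% of all eligible genes. The higher members included Chga and Chgb, granins of secretory granules. Chgb measured 13.6 CPM at 18 somites, 181 at 21, 252 at 24 and 91.0 at 27. Chga measured 17.7, 86.8, 190 and 155 CPM. From 21 to 24 somites 5 of 20 members were higher and 0 lower, where 1.59% of all eligible genes were higher. From 24 to 27 somites 1 of 21 was higher (Pcsk2) and 3 were lower (Chgb, Pam and Rab27a), beside 5.2% higher and 7.53% lower among all eligible genes. Without both sets of cells 5 of 22 were higher and 0 lower in that step, beside 5.35% and 8.15% of all genes eligible there. Over all 4 stages 25 of 26 members tested had a positive slope, but 1, Pcsk2, passed the test. Channel and nutrient-sensing genes were higher in 7 of 9 eligible members from 18 to 21 somites and in 2 of 11 from 21 to 24, with 0 lower. Among all eligible genes 4.13% and 1.59% were higher and 2.23% and 0.787% lower in these steps. From 24 to 27 somites 1 of 11 channel and nutrient-sensing genes was higher and 4 were lower, with a median log2 ratio of -0.71. Without both sets 3 of 13 were higher and 0 lower. In the step from 18 to 21 somites Slc38a5, an amino acid transporter, went from 757 to 3555 CPM, and Abcc8, a subunit of the potassium channel that links metabolism to secretion, from 16.4 to 55.1 CPM.

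Most endocrine transcription factors were higher at 21 than at 18 somites, but Neurog3 was not. Neurog3 measured 130, 133, 90.0 and 81.1 CPM at the 4 stages and was called in no step. Of 21 eligible factors, 13 were higher from 18 to 21 somites and 0 lower, beside 4.13% and 2.23% of all eligible genes. Pax6 went from 39.7 to 242 CPM, Isl1 from 131 to 574 CPM and Pax4 from 25.8 to 59.1 CPM. Pou3f4, a POU-domain factor, had 6 reads at 18 somites and 34.9 CPM at 21, a 145-fold ratio with a wide interval (66.6 to 396). Fev, a factor of endocrine progenitors, went from 2.16 to 28.2 and 66.4 CPM and back to 8.64 CPM at 27 somites. Neurod1, a target of Neurog3, measured 76.8, 234, 292 and 561 CPM. Its slope did not pass the test (edgeR adjusted p = 0.0742). Irx1, an Iroquois factor, was the 1 of 25 factors tested that rose, from 34.0 to 267 CPM (slope 0.31, edgeR adjusted p = 0.0430).

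Levels within the 2 sets moved with some of these values. Epcam-low cells gave 65.5% of the Neurod1 reads of 27 somites and 32.3% of the Neurog3 reads. Without both sets, Neurod1 measured 38.7, 202, 278 and 359 CPM. Cells of neither set also kept the courses of the hormones, with Gcg at 5.24, 197, 2088 and 18913 CPM and Ghrl at 538, 2478, 5631 and 1705 CPM.

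Shares of cells by marker level shifted between stages. The classes are ranges of marker levels, not cell types, and the cells of a stage share unnamed embryos. Gcg-high cells (at least 1000 CPM of Gcg) were 0 of 61 at 18 somites, where the exact interval reaches 5.87%. They were 7 of 149 at 21 somites (4.70%, 1.91 to 9.44%), 16 of 85 at 24 (18.8%, 11.2 to 28.8%) and 8 of 26 at 27 (30.8%, 14.3 to 51.8%). Endocrine-marker-low cells, with Neurog3, Fev and Neurod1 under 10 CPM and Gcg under 100 CPM, went the other way. They were 36 of 61 (59.0%), 45 of 149 (30.2%), 17 of 85 (20.0%) and 0 of 26. This class does not use Ghrl or Pyy, so it is not free of hormone transcripts. A cell of it at 18 somites had 7702 CPM of Pyy, and one at 21 somites had 44453 CPM of Ghrl. Neurog3-high cells (at least 100 CPM of Neurog3 and below the thresholds of Gcg and Fev) were 14 of 61 (23.0%), 52 of 149 (34.9%), 16 of 85 (18.8%) and 5 of 26 (19.2%), and 2 of the 5 were Epcam-low. Fev-high cells (at least 100 CPM of Fev) were 1, 10, 8 and 1 in the 4 stages.

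**Figure D2:**
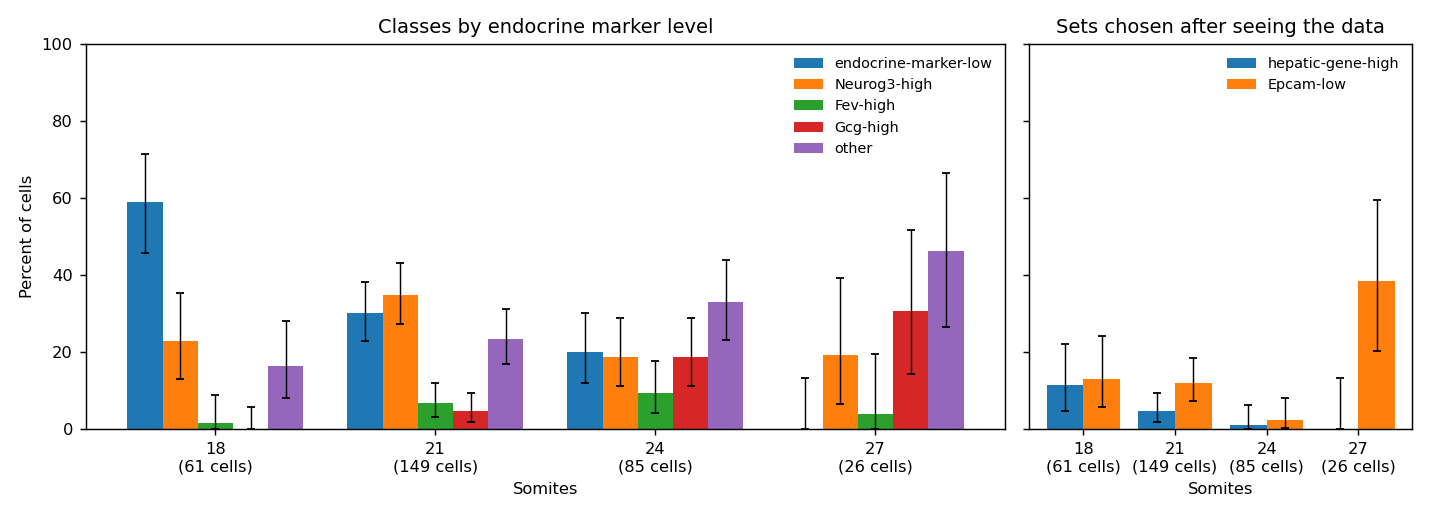
Percent of the cells of each stage in classes of endocrine marker level (left) and in the 2 sets chosen after seeing the data (right), with exact 95% binomial intervals. Endocrine-marker-low cells go from 59.0% to 0% and Gcg-high cells from 0% to 30.8%, while Epcam-low cells are 38.5% at 27 somites.

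Near the threshold of Gcg, 8 cells had between 500 and 2000 CPM, beside 31 Gcg-high cells. At 21 somites 4 of the 7 Gcg-high cells lay there, at 1384 to 1963 CPM, and with the threshold doubled the share of that stage was 2.01%. For Neurog3, 50 cells lay between 50 and 200 CPM, beside 101 at or above 100 CPM, so that class has no clear edge. Gcg-high cells gave 91.0% of all Gcg reads at 21 somites, 97.5% at 24 and 99.5% at 27. The remaining cells also had Gcg reads. Their median was 0 CPM at 18 somites, 8.06 at 21, 26.7 at 24 and 76.3 at 27, and at 27 somites all 18 of them had between 34.2 and 158 CPM, Epcam-low cells included. This level moved with the Gcg of the stage, and its source was not tested. A share of cells with any Gcg read is therefore not used here.

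Within Gcg-high cells, other genes also differed by stage. These cells were selected on Gcg, so its own levels in them, 3257 CPM in the 7 cells of 21 somites, 12808 CPM in the 16 cells of 24 and 35963 CPM in the 8 cells of 27, are a description. Pcsk2 measured 328, 738 and 1348 CPM and Pyy 3608, 6220 and 10921 CPM in the same cells. Irx1 stood at 184, 219 and 497 CPM. Fev went down through 176 and 99.6 to 8.12 CPM, and Ghrl through 7239 and 6403 to 1937 CPM. The Ghrl sums lean on single cells, which reached 25090 CPM at 21 somites, 50883 at 24 and 5655 at 27. All 31 Gcg-high cells had at least 655 CPM of Pyy and at least 146 CPM of Isl1. Their highest level of Mki67, a marker of proliferation, was 34.1 CPM. Ins1 reached 100 CPM in 3 of the 31 cells and Ins2 in 6, with a highest level of 622 CPM of Ins2.

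**Figure D3:**
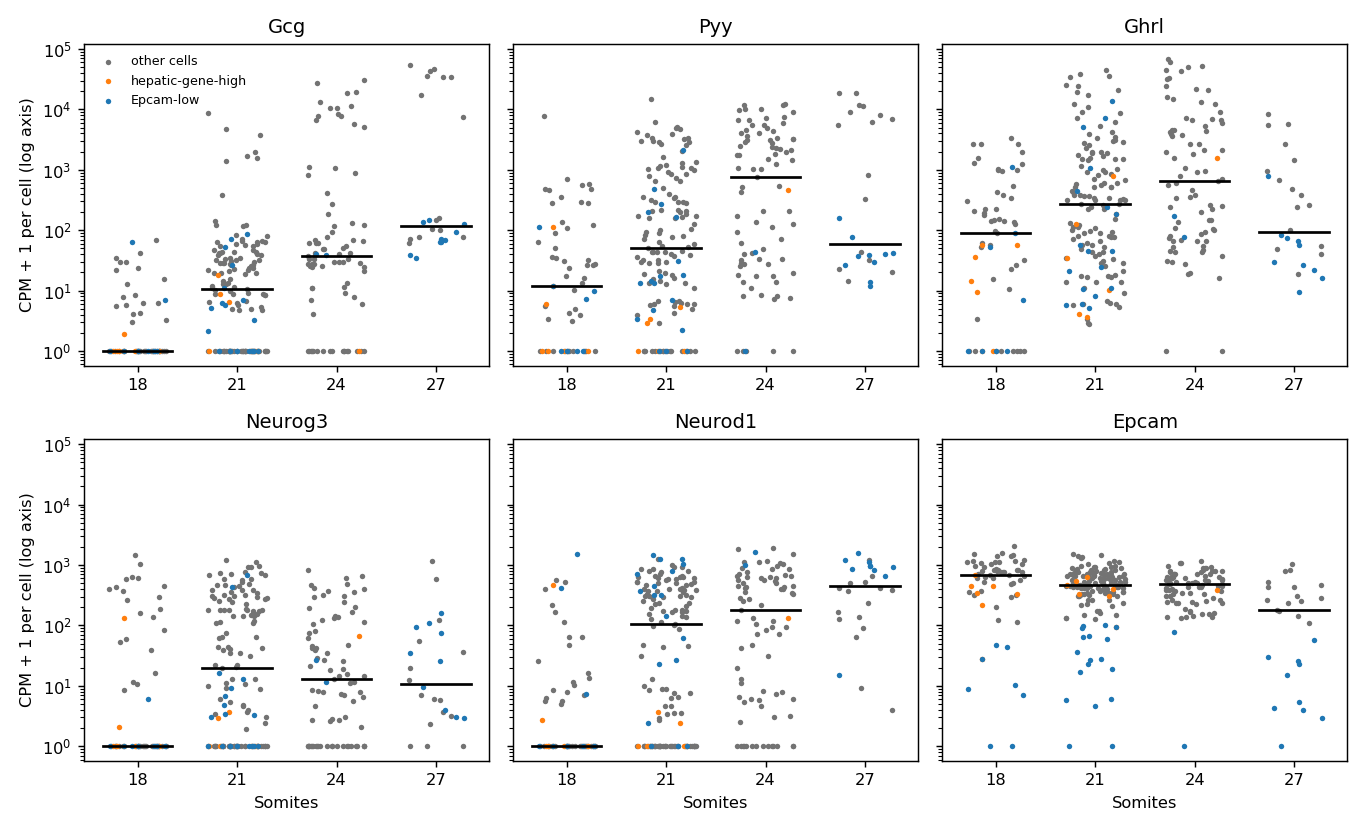
CPM + 1 of 6 genes in each of the 321 cells (log axis) by somite number, with the median of each stage as a bar. Gcg separates into a high group from 21 somites on, and 9 of the 10 Epcam-low cells of 27 somites have at least 100 CPM of Neurod1.

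Neurog3-high cells also differed by stage, in sums of 14, 52, 16 and 5 cells. Epcam-low cells were 2 of the 52 at 21 somites and 2 of the 5 at 27. At 18 somites 1 cell was hepatic-gene-high and gave 16.3% of the reads of the class. The levels include these cells. Ghrl measured 985, 2569, 8806 and 337 CPM in the Neurog3-high cells of 18, 21, 24 and 27 somites, highest at 24 somites as in all cells but lowest at 27. Single Neurog3-high cells reached 52572 CPM of Ghrl at 24 somites and 1451 CPM at 27. Isl1 stood at 292, 885, 1096 and 547 CPM, and Pax6 at 65.7, 390, 225 and 216 CPM. Slc38a5 measured 2309, 5941, 7946 and 2805 CPM. Cdkn1a, an inhibitor of the cell cycle, stood at 1601, 1359, 1341 and 656 CPM.

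The genes that fell were led by apolipoproteins and other genes of liver and yolk sac endoderm. Apob, the main protein of low-density lipoprotein, measured 577 CPM at 18 somites, 142 at 21, 11.7 at 24 and 0.328 at 27, with a slope of -1.11 ± 0.11 (SE; edgeR adjusted p = 0.0359). Apoe, a lipid carrier, measured 1215, 333, 41.9 and 12.9 CPM (slope -0.76, edgeR adjusted p = 0.0158). S100g, a calcium-binding protein of absorptive epithelia, measured 465, 99.9, 9.89 and 0.492 CPM, and Spink1, a trypsin inhibitor, 1070, 230, 63.3 and 6.18 CPM. Apoa2, Apoc1, Spp2, Dab2, Lgals2 and Phlda2, a gene of the placenta and yolk sac that is expressed from the maternal allele, were the other falls named by rule. Of 17 hepatic and yolk sac genes tested, 4 fell and 16 had a negative slope, with a median slope of -0.75. In the step from 18 to 21 somites, 9 of 10 eligible members were lower, where 2.23% of all eligible genes were.

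These falls followed the hepatic-gene-high cells, which were defined by some of the same genes. The set gave 99.2% of the Apob reads, 94.1% of the Apoe reads and 88.1% of the Spink1 reads of 18 somites. Without both sets, 1 of the 27 falling genes, Car4, a carbonic anhydrase, passed the test, and 26 kept a negative slope, with a median of -0.22. Apob then measured 6.20, 13.1, 11.9 and 0.406 CPM, and the slope of Apoa2 was 0.0029. Of the hepatic and yolk sac list, 0 of 6 eligible members were then lower from 18 to 21 somites. Of the 17 members tested, 0 fell and 1 rose without both sets, with a median slope of -0.07. Of the 17 rising genes, 10 still passed, among them Gcg (edgeR adjusted p = 0.00608), Pyy (0.00102), Pcsk2 (0.00437) and Tmem27 (0.00977). Rgs13 (0.123), Epha7 (0.0668), Tspan7 (0.0505), Prrx1 (0.755) and Vim were among those that did not, and 3110039M20Rik was not tested there. Without hepatic-gene-high cells alone, 3 of the 17 rises passed, among them Tmem27 (edgeR adjusted p = 0.0284), while Gcg (0.0560), Pyy (0.0560) and Pcsk2 (0.0938) missed the threshold. Leaving out 1 stage, with 1 residual degree of freedom, left 1 of the 17 rises and 2 of the 27 falls past the threshold without 18 somites, 2 and 10 without 21, 14 and 27 without 24, and 4 and 13 without 27. Gcg missed it without 18 somites (edgeR adjusted p = 0.0711) or 21 somites (0.0644), as did Pyy and Pcsk2, and Apob passed in all 4 fits. Epcam-low cells gave 95.5% of the Rgs13 reads at 27 somites. Prrx1, a factor of mesenchyme, also rose, but 1 cell gave 99.0% of its reads at 27 somites.

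**Figure D4:**
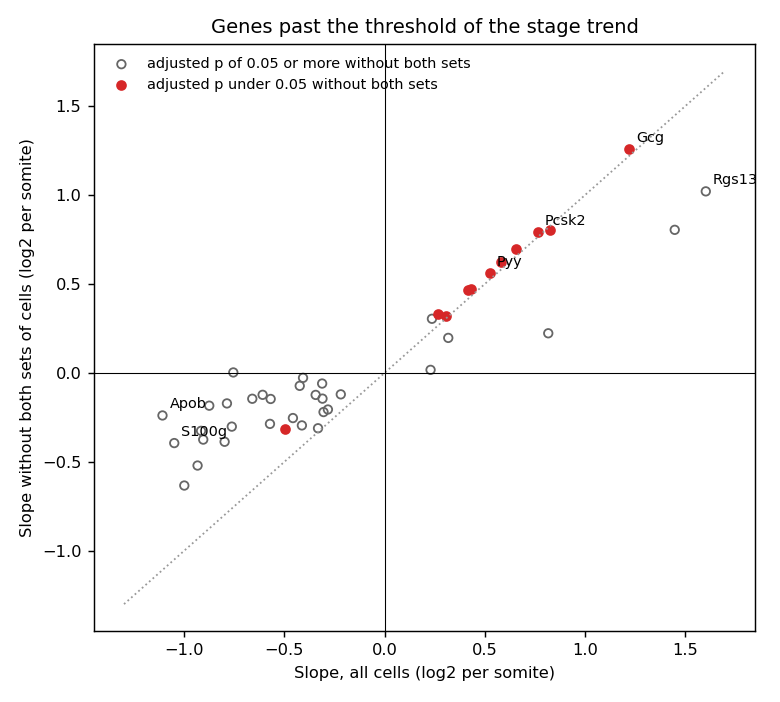
Slope per somite of genes past the threshold of the stage trend, fitted on all cells (x axis) and without the 2 sets of cells (y axis), with filled points for genes still past the threshold. Gcg, Pyy and Pcsk2 lie close to the dotted line of equal slopes, and the falling genes lie nearer to 0 without both sets.

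Without both sets, 33 genes rose (0.222% of 14871) and 4 fell (0.0269%). Beyond the genes above, the rises included Slc7a2, a transporter of basic amino acids (slope 0.95, edgeR adjusted p = 0.0281), Iapp (0.67, 0.0446), Abcc8 (0.44, 0.0109) and Lrpprc, a factor of mitochondrial RNA (0.45, 0.00977). The falls were Anxa2, Car4, Igfbp5 and Ptma, named here because they are so few. Iapp measured 1.41, 5.86, 41.8 and 74.4 CPM in these cells.

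In endocrine-marker-low cells a slope could be fitted over 18 to 24 somites only, since 27 somites had none, with 1 residual degree of freedom. Of 13257 genes tested, 0 rose, at 711 with an unadjusted p under 0.05, and 9 fell (0.0679%). Spink1 fell by 0.63 per somite on the log2 scale (edgeR adjusted p = 0.00188) and S100g by 0.83 (0.0317). Hepatic-gene-high cells were 6 of the 36 endocrine-marker-low cells at 18 somites, 7 of 45 at 21 and 0 of 17 at 24, Epcam-low cells were 6, 3 and 0 of them, and their part in these falls was not tested. Epcam stayed within 520 to 622 CPM in this class and Mki67 measured 203, 164 and 138 CPM.

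From 18 to 21 somites 315 genes were called higher (4.13% of 7627) and 170 lower (2.23%). Without both sets 248 of these 315 were also called higher and 83 of the 170 also lower. With all cells, the largest ratios were those of Pou3f4, Nap1l5, Gcg, Gjd2, Chgb and Pcsk2. Gjd2, a gap junction protein of neurons and endocrine cells, went from 1.56 to 47.4 CPM. The lower genes were led by Slc13a4, a sulfate transporter, from 99.3 to 13.3 CPM. Oprl1, the nociceptin receptor, went from 30.3 to 6.12 CPM, and Nid2, a basement membrane protein, from 30.2 to 6.33 CPM. Hes1, a repressor downstream of Notch, was lower too, at 135 and 58.7 CPM, as was Pdx1, a pancreatic factor, at 23.5 and 10.4 CPM. Of 22 G2 and M phase genes, 3 were lower (Ccnb1, Cenpf and Nusap1) and 0 higher.

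From 21 to 24 somites 121 genes were higher (1.59% of 7621) and 60 lower (0.787%), the fewest of the 3 steps. Without both sets 77 of these 121 were also called higher and 22 of the 60 also lower. With all cells, Gcg, Iapp, Slc7a2, Dock11, Pcsk2 and Tmem27 led the higher genes. Slc7a2 went from 4.06 to 33.2 CPM, and Dock11, an activator of small GTPases, from 7.86 to 52.0 CPM. Pdx1 went from 10.4 to 36.3 CPM. Apoa1, at 576 and 12.0 CPM, Xist, at 68.5 and 2.06 CPM, and Apoa2, at 129 and 10.3 CPM, led the lower genes. Without both sets Apoa2 measured 9.35 and 10.3 CPM and Apoa1 16.2 and 12.0 CPM. Y-linked Ddx3y (43.6 to 138 CPM) and Uty (32.3 to 136 CPM) were higher, beside the 0 cells with Xist alone at 24 somites. Crabp1, a binding protein of retinoic acid, was 7.89-fold lower (7.53 to 8.26), at 504 and 64.0 CPM.

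The step from 24 to 27 somites had the most calls, with 410 genes higher (5.2% of 7892) and 594 lower (7.53%). Epithelial adhesion genes were lower as a group, in 17 of 19 eligible members. Epcam went from 507 to 225 CPM, Krt8 from 870 to 256 CPM and Cdh1, E-cadherin, from 116 to 45.6 CPM. Grhl2, a factor that maintains epithelia, went from 34.4 to 0.766 CPM. Of 11 eligible pancreatic progenitor genes 9 were lower, with Sox9 at 257 and 25.7 CPM and Gata6 at 56.6 and 13.6 CPM. Of 5 intestinal genes 4 were lower, Cdx2 among them at 43.6 and 9.30 CPM. In the other direction, 11 of 23 G2 and M phase genes and 9 of 15 neuronal cytoskeleton genes were higher. Mki67 went from 73.7 to 156 CPM, Tubb3 from 364 to 994 CPM and Stmn2, a microtubule regulator of neurons, from 9.32 to 240 CPM.

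Much of this step was different in cells of neither set, of which 16 remained at 27 somites. Of the 410 higher genes 141 were also called higher there, and of the 594 lower genes 362 were also called lower. Over all 7854 genes eligible there, 5.35% were higher and 8.15% lower. Epithelial adhesion genes were then lower in 8 of 19, with Krt8 at 880 and 423 CPM, while Epcam, which defined the set, and Cdh1 (117 and 83.4 CPM) were no longer called. Pancreatic progenitor genes were lower in 6 of 12, with Sox9 at 259 and 22.9 CPM, and 1 was higher, Nkx6-1, at 7.60 and 24.1 CPM. The G2 and M phase count turned: 0 of 19 were higher and 4 lower, with Mki67 at 74.1 and 35.3 CPM. S phase genes were lower in 12 of 19. Of 11 neuronal cytoskeleton genes 1 was higher and 1 lower, and Tubb3 measured 348 and 281 CPM. Granule genes were higher in 5 of 22 and lower in 0, among them Scg3, at 55.1 and 128 CPM.

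**Figure D5:**
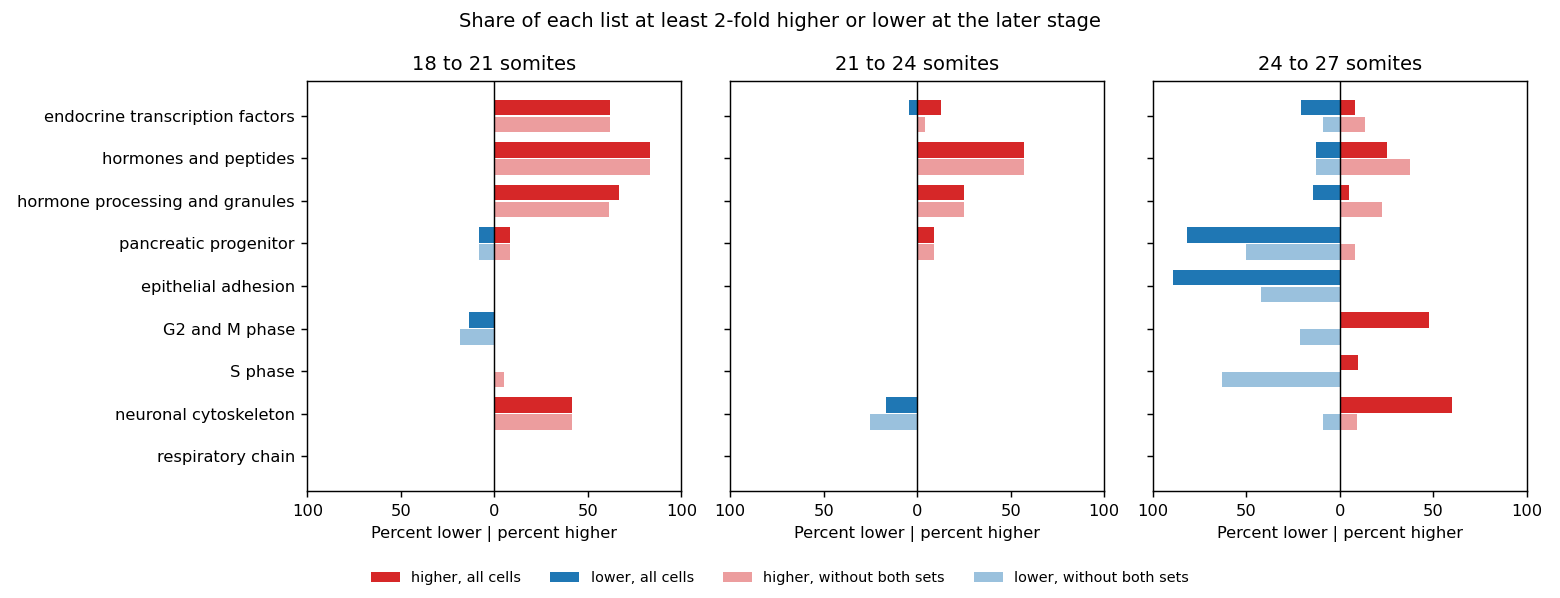
Percent of the eligible genes of 9 lists that were at least 2-fold higher (to the right) or lower (to the left) at the later stage of each step, with all cells (dark) and without the 2 sets of cells (light). From 24 to 27 somites the G2 and M phase list has 11 of 23 genes higher with all cells and 0 of 19 higher without both sets.

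The 6 genes with the largest ratios of this step had lower levels at 27 somites without both sets. Fgf3, a growth factor, went from 0.233 CPM (7 reads) at 24 somites to 44.7 CPM at 27, and Fgf8, of the same family, from 0.333 to 33.6 CPM. Htr3a, a serotonin-gated channel, went from 0.233 to 22.8 CPM, and Pcdh17, a protocadherin, from 0.632 to 68.0 CPM. Gm7271 and Htr1a, a serotonin receptor, had no read at 24 somites and were at least 387-fold and 231-fold higher at 27, against a floor of 3 reads in the sum. Without both sets Fgf3 stood at 3.65 CPM at 27 somites, Fgf8 at 5.68 CPM and Pcdh17 at 9.94 CPM. Of the 10 Epcam-low cells of 27 somites, 9 reached 100 CPM of Neurod1 and 9 of Mki67. Tubb3 reached 100 CPM in 8, and Fgf3, Stmn2 and Pou4f1, a POU-domain factor of sensory neurons, in 6 each. Their Epcam levels ran from 0 to 56.1 CPM with a median of 9.18 CPM. The summed endoderm epithelium markers of the stage went from 3387 CPM at 24 somites to 1129 CPM at 27.

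Epcam-low cells of earlier stages differed among themselves. Neurod1 reached 100 CPM in 2 of 8 at 18 somites, 11 of 18 at 21 and 2 of 2 at 24, and Fgf3 at none of these stages. Pax6 reached 100 CPM in 5 of 18 at 21 somites and in 0 of 10 at 27. Sox10, a marker of neural crest and glia, was at most 5.67 CPM in all 38 Epcam-low cells. No cell type name is given to these cells.

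Markers of other tissues were low in the sums. The neural and neural crest list added up to between 89.3 and 207 CPM per stage and the mesenchyme list to between 65.9 and 188 CPM. Blood markers added up to at most 5.57 CPM, endothelial markers to at most 33.7 CPM and notochord markers to at most 42.8 CPM. Single cells stood far above these sums. The highest cell reached 10821 CPM of the mesenchyme list at 24 somites and 4196 CPM of the neural and neural crest list at 27. Tubb3, Stmn2 and Pou4f1, which were high in Epcam-low cells of 27 somites, are not in these lists. Respiratory chain genes were called in 0 of 23 in each of the 3 steps. Among all eligible genes 4.13%, 1.59% and 5.2% were higher in these steps and 2.23%, 0.787% and 7.53% lower. With such shares 0 of 23 is not read as a result about this list. S phase genes were called only from 24 to 27 somites, with 2 of 21 higher, beside 5.2% of all eligible genes. Without both sets 12 of 19 S phase genes were lower in that step, beside 8.15% of all genes eligible there. No Hox gene or gene of anterior foregut and stomach was called in any step with all cells, with at most 1 eligible in either list. Without both sets Hoxc4, the 1 Hox gene eligible from 18 to 21 somites, was lower in that step. Of 26 Hox genes tested with all cells 25 had a negative slope, but 0 fell. Their levels added up to 155, 92.8, 77.7 and 42.2 CPM at the 4 stages.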

How the data were processed

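The authors deposited a table of read counts per gene and cell, not normalized, and a table of TPM for the same cells, which was used in alternatives only. The submitters' processing notes list HISAT2 2.1.0, Trimmomatic 0.39 and FastQC 0.11.9, and the builds GRCm38 and mm10. The counter, annotation and use of strand or molecular identifiers are not stated in any source used here, so overlapping genes cannot be separated and reads are not independent molecules.

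Members, gene lists and tests were chosen with earlier results of these data known. Counts were summed per stage and fitted with edgeR 4.0.16 (R 4.3.3; TMM scaling, low counts removed by filterByExpr), with the slope per somite tested on simulated data. DESeq2 and limma were alternatives. P-values measure the scatter of 4 stages around a line. Named genes are the 10 largest rises and falls past the threshold with 20 CPM and 10 CPM in 20% of cells of the highest stage, the 6 largest calls of each step in each direction, up to 4 members of each list by p with members called in a step, and landmark genes; some are not reported here. All 321 cells were kept, of which 13, 17, 14 and 0 had under 100000 reads at the 4 stages, and no doublet caller was run. Positions are from GENCODE, and 7 count columns and 509 TPM columns outside the groups described were not used.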

Additional observations from a re-analysis of the deposited data

How the results depend on the processing

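The number of genes past the threshold of the stage trend depended strongly on the method, since 4 sums leave 2 residual degrees of freedom. Beside 17 rising and 27 falling genes, 51 and 96 passed with no filter on low counts and 540 and 704 with DESeq2. With limma, 0 and 0 passed on mean CPM per cell (1544 and 1343 at an unadjusted p under 0.05) and 0 and 3 on mean TPM (1564 and 1200). Across the 11 stage sums of all reporters 0 and 0 passed (692 and 887). Leaving out 1 stage gave 1 to 161 rising and 4 to 293 falling genes. The 5 cells of 15 somites brought the rises to 26, and scaling by totals alone brought the falls to 17. In alternatives chosen after seeing the data, 94 rose and 103 fell without Epcam-low cells, 4 and 0 (1024 falls unadjusted) without hepatic-gene-high cells and 33 and 4 without both sets. In endocrine-marker-low cells of at least 100000 reads 3 rose and 20 fell, and leaving out a stage was not run there because only 3 stages hold such cells. Of 321 alternative slopes of named genes 186 stayed on their side of the threshold, 134 missed it and 1 changed sign.

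A 3-fold threshold left 109 higher and 33 lower genes from 18 to 21 somites, 20 and 16 from 21 to 24, and 175 and 212 from 24 to 27. Means of CPM per cell gave 482 and 265 in the step from 18 to 21 somites, 20 CPM without the share of cells gave 94 lower from 21 to 24, and the authors' TPM gave 365 lower from 24 to 27. With marker thresholds doubled, Fev-high cells were 0% at 18 and 0% at 27 somites, Neurog3-high cells 24.2% at 21 and 7.69% at 27 somites, and Gcg-high cells 2.01% at 21 somites. Endocrine-marker-low cells thinned to 100000 reads were 22.0% at 21 somites. Of 532 alternative step ratios of named genes 271 moved beyond their counting interval, 251 stayed within it and 10 reversed. Directions reversed without hepatic-gene-high cells and without both sets for Apoa2 (log2 ratios 0.28 and 0.31 from 18 to 21 somites, 0.14 and 0.14 from 21 to 24) and Afp (0.66 and 0.51 from 21 to 24), and without both sets for the slope of Apoa2 (0.0029). From 24 to 27 somites they reversed without Epcam-low cells and without both sets for Crabp1 (-2.01 and -2.01) and Mki67 (-1.07 and -1.07). No paired analysis was possible because the shared numbers name cells and each result comes from a sum or share over the cells of a stage.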
